A study of Mus musculus with 20 samples.

Results

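Cholesterol synthesis, uptake and sterol sensing is represented here by 29 genes of the mouse liver: 8 genes of the early, isoprenoid steps of synthesis, 11 genes of the late steps from squalene to cholesterol, 4 genes of sterol sensing, and 6 genes of intracellular transport, esterification, receptor turnover and efflux. The members were chosen by gene symbol, with earlier results of these data known. Shares of members set beside shares of all genes are therefore a description and not a test. Of the 29 genes, 27 had a probe set listed under their symbol alone and were measured, out of 18193 genes measured in all, and all 27 entered the tests among 16054 genes. The transcripts of Acat2 and Soat2 were not analysed here. Liver RNA came from 20 male CD1 mice, an outbred stock, with 5 mice in each of 4 groups and 1 array per mouse. Treated mice received phenobarbital sodium (PB) by mouth at 80 mg/kg/day for 28 or 90 days, and the 2 control groups received methylcellulose, the vehicle (CMC), daily for the same durations. The left lateral lobe was frozen on the day after the last dose, and no age of the mice was given. Biotin-labelled RNA was read on Affymetrix arrays, and every level below is a log2 intensity with n = 5 mice per group. A change is PB minus CMC in log2 units with its standard error (SE), and a gene was called where limma gave an adjusted p under 0.05 over all genes tested.

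Hepatocytes make cholesterol from acetyl-CoA through mevalonate and squalene, and the enzymes sit largely in or on the endoplasmic reticulum. When sterols in that membrane are low, Scap escorts the precursor of SREBP-2, the product of Srebf2, to the Golgi, where proteases release a transcription factor that raises nearly all genes of the pathway together. When sterols are plentiful, Insig1 and Insig2 hold Scap in the endoplasmic reticulum and the pathway falls silent. Phenobarbital is a sedative drug that activates the constitutive androstane receptor in hepatocytes and raises drug-metabolising enzymes.

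The promoters of the synthesis genes are shown first, because SREBP-2 is known to act with the CCAAT-binding factor NF-Y at such promoters. RefSeq windows of 300 bases (GRCm38.p6, 250 before to 50 after the transcript start) were given for 23 of the 29 members and not for Fdps, Fdft1, Sqle, Npc1, Stard4 and Soat2. Printed below, 5′ to 3′ along each gene's own strand, are the 250 bases before the start of 4 enzyme genes with a negative change and of Tm7sf2. The change of Tm7sf2 was positive, and none of these genes was called. Capitals mark CCAAT, or ATTGG where it lies on the opposite strand, and, in Hmgcs1, TCACCCCAC.
Hmgcs1, chr13:119690101-119690350, plus strand: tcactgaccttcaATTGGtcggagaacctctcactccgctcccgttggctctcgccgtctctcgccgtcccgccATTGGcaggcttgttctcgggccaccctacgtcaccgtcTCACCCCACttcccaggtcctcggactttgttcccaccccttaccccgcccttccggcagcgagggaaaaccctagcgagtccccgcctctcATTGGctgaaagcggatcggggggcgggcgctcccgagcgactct
Lss, chr10:76531355-76531604, plus strand: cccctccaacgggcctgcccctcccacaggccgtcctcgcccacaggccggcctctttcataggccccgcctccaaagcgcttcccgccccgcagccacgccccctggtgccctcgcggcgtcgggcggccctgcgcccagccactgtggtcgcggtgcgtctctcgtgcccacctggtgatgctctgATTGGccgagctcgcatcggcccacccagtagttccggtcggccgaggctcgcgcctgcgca
Msmo1, chr8:64733579-64733828, minus strand: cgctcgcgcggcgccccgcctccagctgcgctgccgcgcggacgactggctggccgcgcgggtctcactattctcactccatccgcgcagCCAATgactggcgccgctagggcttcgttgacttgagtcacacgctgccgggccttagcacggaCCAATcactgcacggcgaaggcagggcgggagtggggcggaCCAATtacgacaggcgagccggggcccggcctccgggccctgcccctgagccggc
Hsd17b7, chr1:169969206-169969455, minus strand: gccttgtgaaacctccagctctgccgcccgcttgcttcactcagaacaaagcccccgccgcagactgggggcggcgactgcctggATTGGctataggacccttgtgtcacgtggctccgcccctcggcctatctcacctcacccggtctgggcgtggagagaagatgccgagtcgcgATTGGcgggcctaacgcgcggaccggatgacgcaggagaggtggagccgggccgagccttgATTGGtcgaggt
Tm7sf2, chr19:6067851-6068100, minus strand: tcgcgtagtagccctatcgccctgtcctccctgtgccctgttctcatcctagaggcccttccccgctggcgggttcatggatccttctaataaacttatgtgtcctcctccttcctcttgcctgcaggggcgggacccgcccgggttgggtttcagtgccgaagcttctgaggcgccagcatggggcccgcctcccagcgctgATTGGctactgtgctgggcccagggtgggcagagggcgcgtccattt
The stretch of Hmgcs1 held 3 CCAAT pentamers, all on the opposite strand, and 1 match to TCACNCCAC, a shortened form of the sterol regulatory element, whose first base lay 137 bases before the start. Hsd17b7 and Msmo1 held 3 pentamers each, and Lss and Tm7sf2 held 1 each. Over the whole windows and both strands, CCAAT was present in 21 of 23 members (91.3%), all but Scap and Acat2, and in 15 of the 16 synthesis genes, against 41.1% of 27025 genes in the table and 42.3% of its 17492 protein-coding genes. The only CCAAT match of Abcg5 began at its transcript start, and the 250 bases before it held none. That match is the same site as a match of Abcg8, whose window overlaps. GGGCGG, a binding motif of Sp1, was present in 19 members (82.6%), against 38.2% of all genes and 49.2% of protein-coding genes. CACGTG, an E-box, was present in 5 members (21.7%), against 8.09% and 8.91%. TCACNCCAC was found in Hmgcs1 alone (4.35% of members, 1.44% of all genes and 1.41% of protein-coding genes). The full classical sterol regulatory element was found in 0 members and 0.0999% of all genes, and a perfect spaced direct repeat of the kind that nuclear receptors bind in 0 members and 0.0148% of all genes. The shortened element is contained in the full one. The members' windows were richer in G and C, with a median of 60.8% against 52.7% over all genes. CCAAT was present in the 4 printed genes with a negative change and in Tm7sf2, whose change was positive, and none of these changes was called. These matches describe letters in a fixed window and not binding.

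The labels were borne out by Cyp2b10, the classical phenobarbital-induced enzyme, which was 29.8-fold higher after 28 days (adjusted p = 0.000572) and 59.1-fold higher after 90 days (adjusted p = 2.79e-05). Across all genes, 8 were called at 28 days (0.0498%), 23 at 90 days (0.143%) and 34 for the mean of both effects (0.212%). Of the 7 hepatocyte markers 7 were above background in every array, and their summed linear intensity spanned 110000 to 131000 (CMC) and 89300 to 125000 (PB) at 28 days, and 126000 to 130000 (CMC) and 109000 to 131000 (PB) at 90 days. Fewer hepatocytes and less RNA per cell cannot be told apart in such bulk samples. In a principal component analysis, whose leading axis took up 55.6% of the variance, 2 treated arrays stood apart at the low end: PB 28-day replicate 5 (score -107.9) and PB 90-day replicate 3 (score -65.2). PB 28-day replicate 5 also had the highest background level of the 20 arrays (a 25th percentile of 4.26, the others from 3.96 to 4.12) and was the lowest of the 20 arrays for 19 of the 27 members and for 25.9% of all genes. Main results are therefore also given without these 2 arrays.

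Under PB the genes of cholesterol synthesis lay below vehicle at both durations, by small amounts that no single gene carried past the threshold. Of the 27 members 25 had a negative change at 28 days, 22 at 90 days and 22 in the mean of both effects, against 50.4%, 43.8% and 44.2% of all genes. The median change was -0.32 at 28 days and -0.29 at 90 days, where the median over all genes was 0.00 and 0.03. Among the 18 synthesis genes the medians were -0.46 and -0.32, and every synthesis gene except Tm7sf2 at both durations and Ggps1 at 90 days had a negative change. Called members numbered 0 in each comparison by limma, with a smallest adjusted p of 1 at 28 days, 0.816 at 90 days and 0.257 for the mean of both effects.

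At an unadjusted p under 0.05, limma placed 10 members lower at 28 days (37.0% of members, 1.03% of all genes) and 4 lower at 90 days (14.8%, 1.38%). For the mean effect, which uses all 20 arrays and shares them with both single effects, 14 members were lower (51.9%, 2.37% of all genes) and 1, Tm7sf2, was higher (3.70%, 4.24%). The 14 were Hmgcs1, Mvk, Mvd, Fdps, Fdft1, Sqle, Lss, Cyp51, Msmo1, Nsdhl, Hsd17b7, Ebp, Sc5d and Stard4, so that 13 of the 18 synthesis genes were among them. Without the 2 arrays that stood apart, 20, 20 and 19 members had a negative change at 28 days, at 90 days and in the mean. The shares of all genes were then 44.9%, 48.5% and 46.6%. At that p, 6, 5 and 14 members were lower (22.2%, 18.5% and 51.9%), against 1.79%, 1.75% and 2.24% of all genes. Tm7sf2 alone was then higher at 28 days and in the mean effect (3.70% each), against 2.28% and 3.22% of all genes. The medians of the synthesis genes were then -0.36, -0.33 and -0.37. Of the 14 in the mean effect 12 were in both sets: Ebp (unadjusted limma p of 0.0514 without the 2 arrays) and Sc5d (0.0753) left it, and Pmvk (0.031) and Idi1 (0.00488) entered it. The count at 28 days fell to 4 without CMC 28-day replicate 2 (1.03% of all genes) or without PB 28-day replicate 5 (1.24%). It was 6 without PB 28-day replicate 1 (1.23%) or 4 (0.847%). The 90-day count was 1 without CMC 90-day replicate 1 (1.53% of all genes) or 4 (0.866%), and 8 without CMC 90-day replicate 2 (1.63%). It was 2 without CMC 90-day replicate 3 (1.16%) or PB 90-day replicate 3 (0.99%) or 4 (0.897%). When each array was left out, the count of the mean effect stayed between 11 and 16. The share of all genes then lay between 1.66% and 3.87%.

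**Figure D1:**
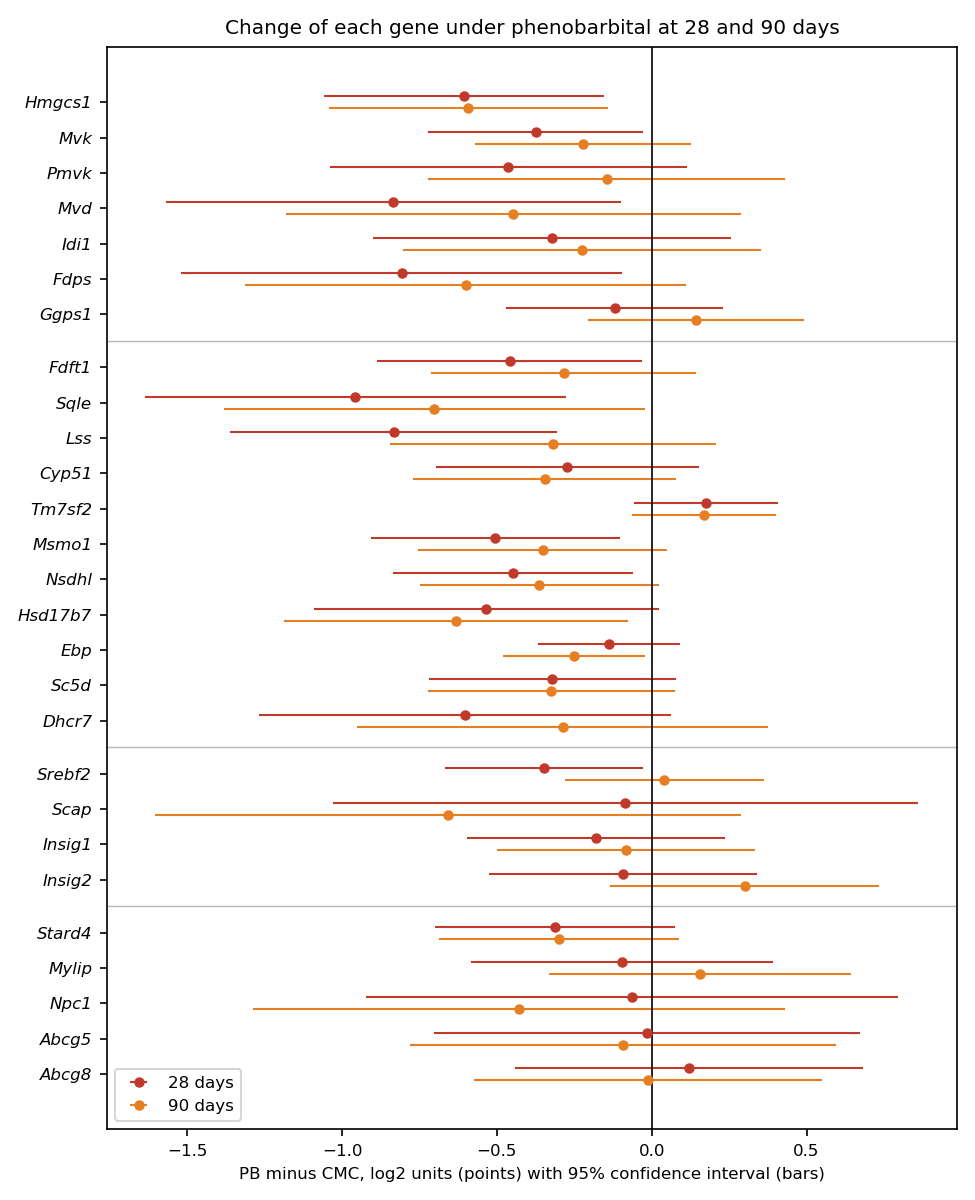
Change of each of the 27 measured genes under phenobarbital (horizontal axis, PB minus CMC in log2 units) at 28 days (red) and 90 days (orange), with 95% confidence intervals from limma; horizontal lines divide early synthesis, late synthesis, sensing and transport. Most points of the synthesis genes lie left of 0, with Tm7sf2 (0.18 and 0.17) to the right. The intervals lie wholly below 0 for 10 genes at 28 days, namely Srebf2 and synthesis genes, and for 4 synthesis genes at 90 days. All other intervals, of synthesis, sensing and transport genes, span 0.

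The early, isoprenoid steps convert acetyl-CoA units to farnesyl diphosphate, the last intermediate shared with protein prenylation, and all 7 measured members had a negative change at 28 days (median -0.46) and 6 of 7 at 90 days (median -0.22). Hmgcs1, the synthase that makes HMG-CoA, had the smallest p of all members in the mean effect. Its log2 intensities were 12.60, 13.23, 12.63, 13.20 and 12.99 in the CMC livers at 28 days and 12.08, 12.52, 12.94, 12.50 and 11.59 in the PB livers. At 90 days they were 13.51, 13.46, 13.58, 13.27 and 13.19 under CMC and 12.51, 13.18, 12.73, 12.37 and 13.26 under PB. In each duration 4 of 5 treated livers lay below the lowest vehicle liver, and the groups overlapped through PB replicate 3 at 28 days and PB replicate 5 at 90 days. The changes were -0.61 ± 0.216 (SE) and -0.59 ± 0.216, with exact two-sided permutation p = 0.0397 and p = 0.0159 (0.0952 and 0.0857 after adjustment over 18 such tests, smallest possible p 0.00794). Of the 9 genes so tested 6 were picked for their small limma p in the same comparisons, which that adjustment does not cover. The mean effect was -0.60 ± 0.153, a level 1.51-fold lower, with an adjusted limma p of 0.257 that ranged from 0.0759 to 0.495 over the alternatives tried. All 5 Hmgcs1 probe sets had a negative mean effect, between -0.55 and -0.70. Without the 2 arrays that stood apart the changes of Hmgcs1 were -0.42 at 28 days and -0.57 at 90 days.

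The kinases and the decarboxylase that follow had the same sign. Mvk, mevalonate kinase, went from 7.82 ± 0.25 (SD, n = 5) under CMC to 7.44 ± 0.17 under PB at 28 days and from 8.08 ± 0.28 to 7.86 ± 0.26 at 90 days. Mvd, mevalonate diphosphate decarboxylase, went from 7.58 ± 0.78 to 6.75 ± 0.38 and from 8.13 ± 0.52 to 7.69 ± 0.65. Fdps, farnesyl diphosphate synthase, went from 9.46 ± 0.32 to 8.65 ± 0.75 and from 10.07 ± 0.74 to 9.47 ± 0.34. For these 3 genes the mean effects were -0.30, -0.64 and -0.70. Mvd and Fdps varied much within groups, and the change of Fdps at 28 days was -0.49 without the 2 arrays that stood apart, against -0.81 with them.

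Pmvk, phosphomevalonate kinase, and Idi1, the isopentenyl diphosphate isomerase, had negative changes (mean effects -0.30 and -0.27) that did not reach an unadjusted p of 0.05 with all arrays. They were -0.43 and -0.49 without the 2 arrays that stood apart, both past that p. Ggps1 makes geranylgeranyl diphosphate on a side branch to prenylated proteins, and its change was -0.12 at 28 days and 0.14 at 90 days. For the probe set used, the mean effect was 0.01 with a 95% confidence interval from -0.24 to 0.26. The measured mean effect of Mvk lay outside that interval, but its own interval, from -0.545 to -0.052, overlapped it. Other probe sets of Ggps1, nearly as bright, had -0.35 and -0.34 at 28 days and 0.07 and 0.11 at 90 days. Their mean effects were -0.14 and -0.11, and that of a dimmer one was 0. A change as large as that of Mvk was therefore not excluded for the gene.

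The late steps begin with squalene and include the enzymes that trim lanosterol to cholesterol. Of 11 measured genes 10 had a negative change at both durations, with medians of -0.46 and -0.33. Fdft1, squalene synthase and the branch point towards sterols, went from 11.33 ± 0.33 to 10.88 ± 0.43 at 28 days and from 12.01 ± 0.29 to 11.73 ± 0.24 at 90 days (SD, n = 5). Its second bright probe set had the changes -0.56 and -0.23, close to -0.46 and -0.28, whereas its 2 dim probe sets had mean effects of 0.01 and -0.01.

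Sqle, squalene epoxidase and a rate-limiting enzyme of the late pathway, had the largest mean effect of any member with all arrays, whereas without the 2 arrays that stood apart Mvd had -0.67 and Sqle -0.64. The CMC livers at 28 days had 9.47, 10.82, 10.02, 9.80 and 10.32, and the PB livers 9.63, 9.18, 9.83, 9.02 and 7.99. At 90 days the CMC livers had 10.76, 10.15, 10.86, 10.87 and 10.39, and the PB livers 10.14, 10.48, 9.54, 9.11 and 10.25. The lowest treated livers were PB replicate 5 at 28 days and PB replicate 4 at 90 days, and the groups overlapped at both durations. The changes were -0.96 ± 0.325 and -0.70 ± 0.325 (SE), that is 1.94-fold and 1.63-fold lower, with exact two-sided permutation p = 0.0397 and p = 0.0476 (both 0.0952 adjusted). They were -0.67 and -0.61 without the 2 arrays that stood apart.

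Lss, which folds squalene epoxide into lanosterol, had the smallest limma p of the members at 28 days (unadjusted 0.00363, adjusted 1). Its intensities at 28 days were 8.76, 9.54, 9.41, 9.38 and 9.19 under CMC and 8.57, 8.62, 9.14, 8.28 and 7.51 under PB. At 90 days they were 10.07, 9.50, 10.00, 9.97 and 9.53 under CMC and 9.67, 9.77, 9.08, 9.10 and 9.85 under PB. At 28 days 4 of 5 treated livers lay below the lowest vehicle liver, while at 90 days 2 of 5 did. The change was -0.83 ± 0.253 at 28 days (exact two-sided permutation p = 0.0159, 0.0857 adjusted) and -0.32 ± 0.253 at 90 days (exact p = 0.175, 0.262 adjusted). The difference between these effects, 0.51 ± 0.358 (SE) with a 95% confidence interval from -0.23 to 1.26, did not pass the limma test (adjusted p = 1). Without the 2 arrays that stood apart the changes of Lss were -0.60 and -0.21. Its dimmer probe sets had -0.59 and -0.51, and -0.24 and -0.21, so that they did not share the wide gap between durations.

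Msmo1, a methylsterol monooxygenase that removes methyl groups from the sterol ring, had 12.33, 12.38, 12.25, 12.03 and 11.81 under CMC and 11.58, 11.97, 11.78, 11.12 and 11.84 under PB at 28 days. At 90 days it had 12.51, 11.87, 12.73, 12.32 and 12.28 under CMC and 11.76, 11.80, 12.57, 11.74 and 12.08 under PB. In each duration 3 of 5 treated livers lay below the lowest vehicle liver, and PB 90-day replicate 3, at 12.57, was higher than all but 1 vehicle liver. The changes were -0.50 ± 0.193 and -0.35 ± 0.193 (SE), with exact two-sided permutation p = 0.0238 and p = 0.135 (0.0857 and 0.221 adjusted). Without the 2 arrays that stood apart the changes were -0.55 and -0.50, and its mean effect of -0.52 then had the smallest adjusted limma p of the members, 0.145.

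Hsd17b7, a ketosteroid reductase of the same demethylation complex, had 9.45, 10.28, 9.67, 9.96 and 9.63 under CMC and 9.58, 9.43, 9.75, 9.18 and 8.38 under PB at 28 days. At 90 days it had 11.05, 10.39, 10.75, 10.81 and 10.28 under CMC and 10.12, 10.48, 9.60, 9.38 and 10.54 under PB. The groups overlapped at both durations, with 3 of 5 treated livers below the lowest vehicle liver in each. The changes were -0.53 ± 0.267 and -0.63 ± 0.267 (SE), with exact two-sided permutation p = 0.0873 and p = 0.0476 (0.157 and 0.0952 adjusted). Its 3 brighter probe sets had mean effects from -0.55 to -0.58, and a dim one 0.01. Its change at 28 days was -0.31 without the 2 arrays that stood apart.

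Ebp, a sterol isomerase, varied little between mice of a group, and its change was among the smaller ones. It had 12.61, 12.67, 12.37, 12.46 and 12.58 under CMC and 12.39, 12.31, 12.54, 12.64 and 12.12 under PB at 28 days, with wide overlap. At 90 days it had 12.90, 12.59, 12.76, 12.78 and 12.70 under CMC and 12.49, 12.33, 12.42, 12.55 and 12.70 under PB, where 4 of 5 treated livers lay below all vehicle livers. The changes were -0.14 ± 0.110 and -0.25 ± 0.110 (SE), with exact two-sided permutation p = 0.214 and p = 0.0159 (0.296 and 0.0857 adjusted).

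**Figure D2:**
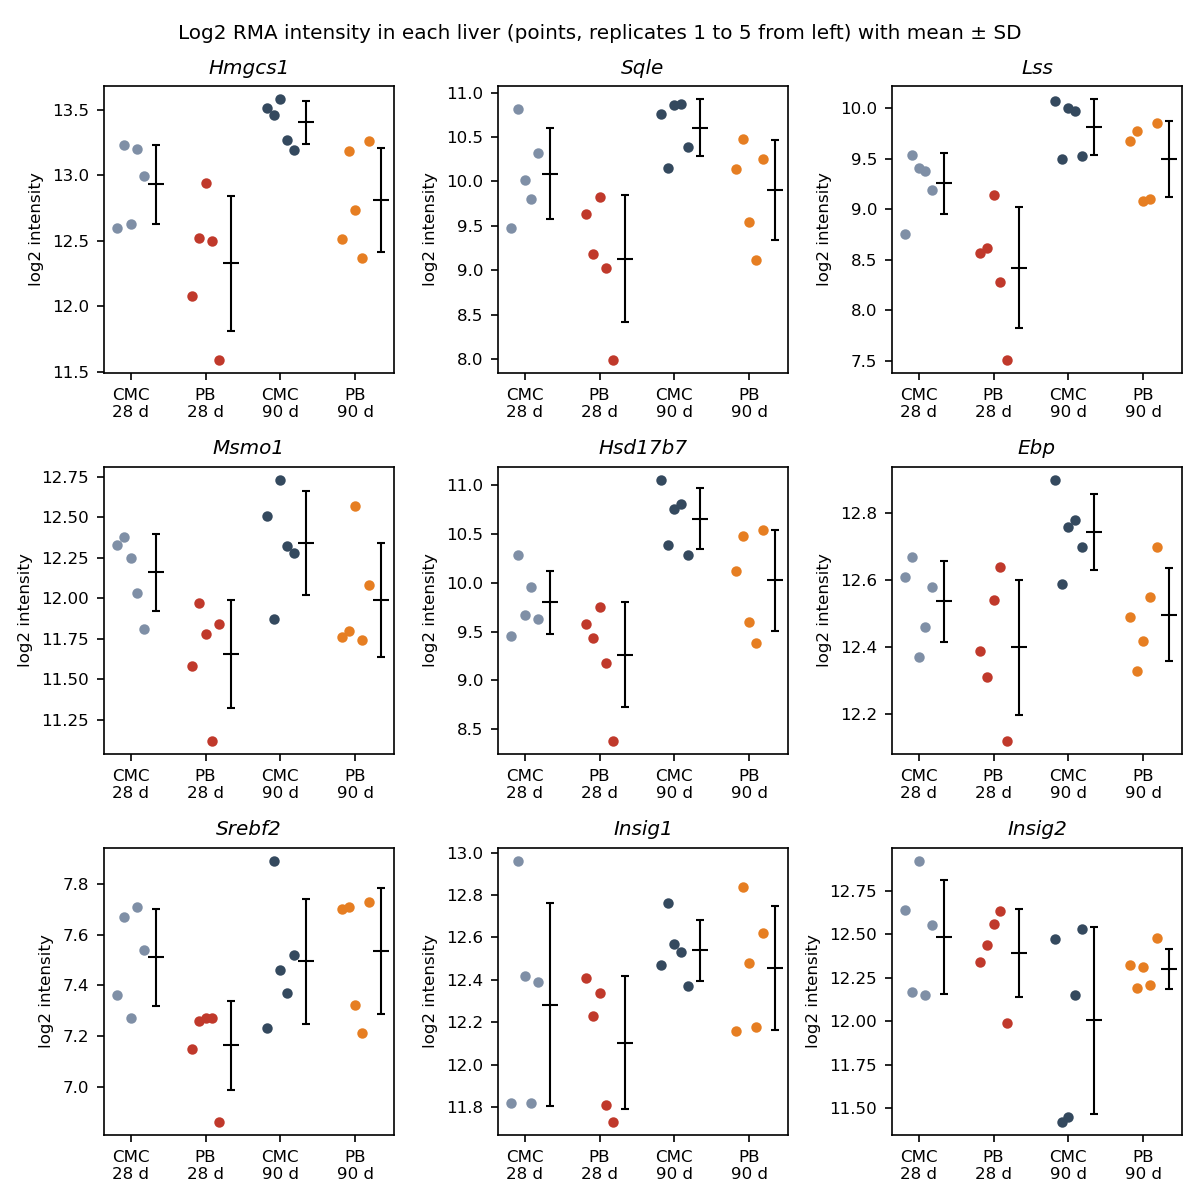
Log2 intensity of 9 genes in each liver (points, replicates 1 to 5 from left to right) in the CMC and PB groups at 28 and 90 days, with mean ± SD beside the points; each panel has its own vertical scale. The treated means of Hmgcs1, Sqle, Lss, Msmo1, Hsd17b7 and Ebp lie below the vehicle mean of the same duration, and that of Srebf2 does so at 28 days only (7.16 against 7.51, and 7.53 against 7.49 at 90 days).

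Among the other late enzymes, Cyp51, the lanosterol demethylase, was the one member whose groups did not overlap at 28 days, from 10.29 to 10.45 under CMC and from 9.92 to 10.21 under PB. Such separation downward was seen in 0.187% of all genes at 28 days. Its change was -0.27 ± 0.204 (SE) there and -0.35 ± 0.204 at 90 days, when 0 members and 0.43% of all genes lay fully below vehicle. The 90-day change of Cyp51 was -0.17 without CMC 90-day replicate 1, -0.52 without CMC 90-day replicate 2 and -0.65 with the mean of all probe sets, one of which had -1.23. Nsdhl, a dehydrogenase of sterol demethylation, had the changes -0.45 and -0.36, and Sc5d, a sterol desaturase, -0.32 and -0.33. Dhcr7, the reductase of the last step, had -0.60 and -0.29, which were -0.36 and -0.04 without the 2 arrays that stood apart.

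Tm7sf2, a sterol reductase whose reaction the lamin B receptor also carries out, was the exception among the late enzymes. It went from 11.59 ± 0.15 to 11.76 ± 0.16 at 28 days and from 11.72 ± 0.10 to 11.89 ± 0.11 at 90 days (SD, n = 5). The changes of 0.18 and 0.17 were small, and the mean effect of 0.17 ± 0.079 (SE) had an adjusted limma p of 0.72. Its within-group SD of 0.13 was the smallest of the members.

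The sensing genes set the activity of the pathway largely at the level of protein transport. All 4 had a negative change at 28 days (median -0.14) and 2 did at 90 days (median -0.02). Without the 2 arrays that stood apart, 2 of the 4 had a negative change at each duration. Srebf2 encodes SREBP-2. Its intensities were 7.36, 7.67, 7.27, 7.71 and 7.54 under CMC and 7.15, 7.26, 7.27, 7.27 and 6.86 under PB at 28 days. At 90 days they were 7.23, 7.89, 7.46, 7.37 and 7.52 under CMC and 7.70, 7.71, 7.32, 7.21 and 7.73 under PB. Rounded to 2 decimals, no treated liver at 28 days exceeded 7.27, the lowest vehicle value, which 2 of them equalled, and at 90 days the groups overlapped throughout. The change was -0.35 ± 0.154 (SE; exact two-sided permutation p = 0.0238, 0.0857 adjusted) and 0.04 ± 0.154 (exact p = 0.77, 0.77 adjusted). Its dimmer probe set gave -0.29 and -0.38, so that the probe sets of Srebf2 disagreed at 90 days. The difference between durations, 0.39 ± 0.217, did not pass the limma test (adjusted p = 1).

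Insig1 is itself a target of SREBP-2 and closes a feedback loop. It had 11.82, 12.96, 12.42, 11.82 and 12.39 under CMC and 12.41, 12.23, 12.34, 11.81 and 11.73 under PB at 28 days. At 90 days it had 12.47, 12.76, 12.57, 12.53 and 12.37 under CMC and 12.16, 12.84, 12.48, 12.18 and 12.62 under PB. The groups overlapped widely. Its changes were -0.18 ± 0.200 and -0.08 ± 0.200 (SE), with exact two-sided permutation p = 0.397 and p = 0.579 (0.476 and 0.651 adjusted). The 95% confidence interval of its mean effect ran from -0.43 to 0.16, and the measured mean effects of Hmgcs1 and Sqle lay below it. Their own intervals, from -0.92 to -0.28 and from -1.31 to -0.35, overlapped it, and the difference between genes was not tested.

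Insig2, the second retention protein, is known to be controlled differently from Insig1. It had 12.64, 12.17, 12.92, 12.15 and 12.55 under CMC and 12.34, 12.44, 12.56, 12.63 and 11.99 under PB at 28 days. At 90 days it had 12.47, 11.42, 11.45, 12.15 and 12.53 under CMC and 12.32, 12.19, 12.31, 12.21 and 12.48 under PB. The CMC livers at 90 days spanned 11.42 to 12.53 and the PB livers lay inside that span. The changes were -0.09 ± 0.208 and 0.30 ± 0.208 (SE), with exact two-sided permutation p = 0.635 and p = 0.333 (0.672 and 0.428 adjusted), and all 3 probe sets had these signs. Scap had the largest within-group SD of the members (0.79), with the lowest values in the 2 arrays that stood apart (8.20 at 28 days and 8.54 at 90 days). Its changes of -0.08 and -0.66 became 0.38 and -0.27 without them.

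The 5 transport genes had median changes of -0.06 and -0.09, with 4 negative at each duration. Without the 2 arrays that stood apart, 1 was negative at 28 days and 2 at 90 days. Stard4, a soluble carrier of cholesterol between membranes, went from 10.56 ± 0.27 to 10.25 ± 0.35 at 28 days and from 10.94 ± 0.34 to 10.64 ± 0.08 at 90 days (SD, n = 5), and its changes were -0.31 and -0.30. Mylip, a ubiquitin ligase that marks lipoprotein receptors for degradation, had the changes -0.10 and 0.16. Npc1, which exports cholesterol from lysosomes, had -0.06 and -0.43, the latter with a 95% confidence interval from -1.29 to 0.43 and at -0.07 without PB 90-day replicate 3.

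Abcg5 and Abcg8 form the dimer that pumps sterols into bile, and their transcript starts lie 110 bases apart on opposite strands of chromosome 17. Their changes were -0.02 and 0.12 at 28 days and -0.09 and -0.01 at 90 days. The 95% confidence intervals of their mean effects were wide, from -0.54 to 0.43 for Abcg5 and from -0.34 to 0.45 for Abcg8. The changes of Scap, Insig2, Mylip, Npc1 and Abcg5 at 28 days were above 0 without the 2 arrays that stood apart.

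**Figure D3:**
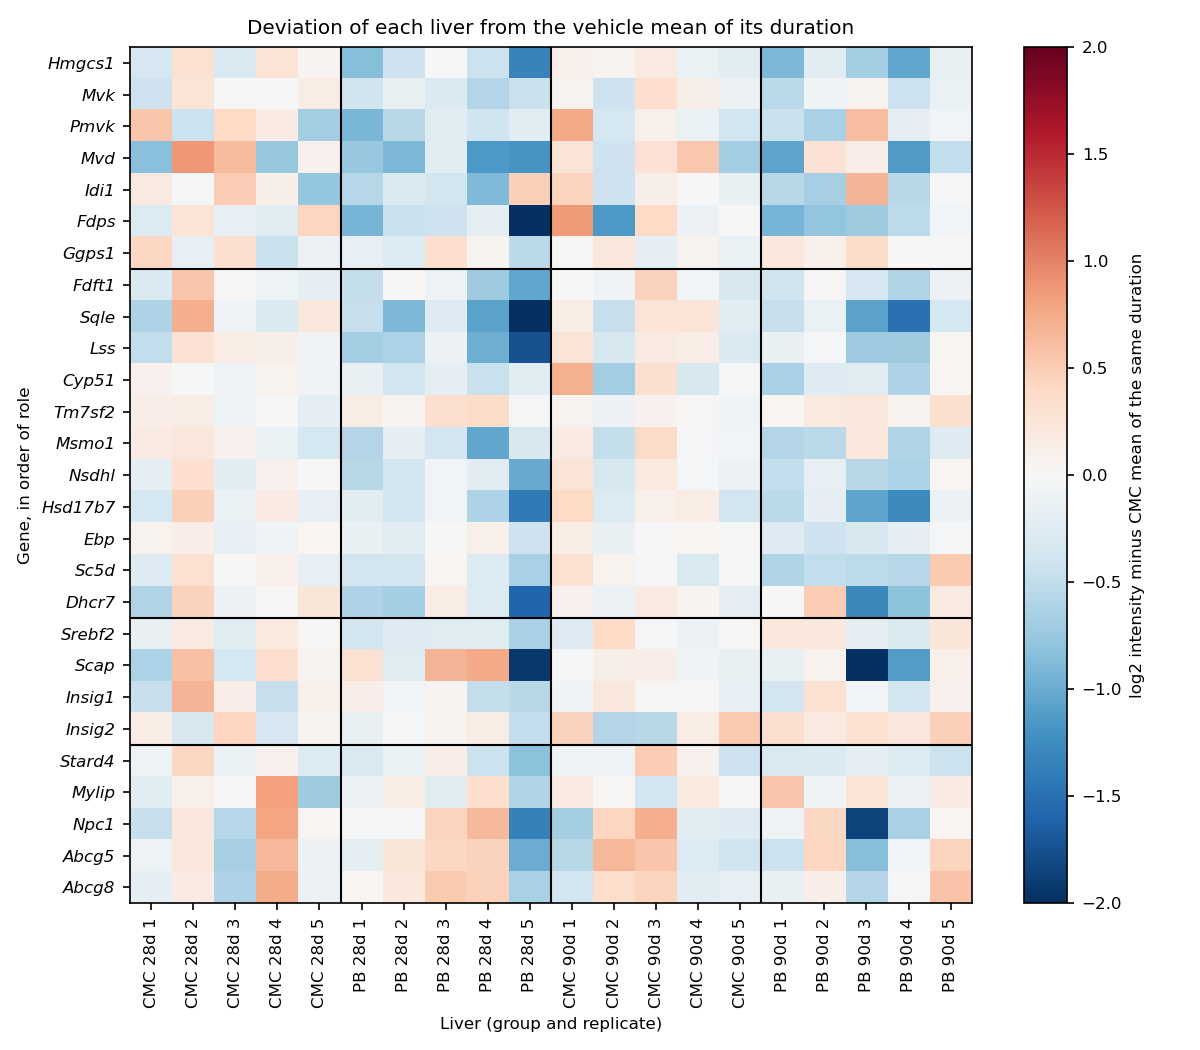
Deviation of each liver (columns, by group and replicate) from the CMC mean of the same duration for the 27 genes (rows, in order of role), in log2 units from -2 (blue) to 2 (red), with deeper values shown at the end of the scale. Blue is spread over most rows of early and late synthesis in the PB columns, deepest in PB 28-day replicate 5, while the sensing and transport rows are mixed.

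The lower synthesis transcripts were not carried by 1 liver. The median deviation of the 18 synthesis genes from the vehicle mean was -0.52, -0.37, -0.11, -0.44 and -0.83 in the treated livers at 28 days and -0.52, -0.17, -0.33, -0.60 and -0.05 at 90 days, in order of replicate number. All 10 treated livers lay below 0, and the 10 vehicle livers spanned -0.32 to 0.28. Each vehicle liver belongs to the mean it was compared with, which narrows the vehicle span. Treated livers of a duration share 1 vehicle mean, so their deviations are not independent. Treated and vehicle livers overlapped: PB replicate 3 at 28 days and PB replicates 2 and 5 at 90 days lay within the vehicle range. Over all genes tested the medians of the arrays stayed between -0.03 and 0.12. The normalisation, which gives all arrays 1 distribution, holds these medians near 0, so they cannot show whether an array differed in quality.

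**Figure D4:**
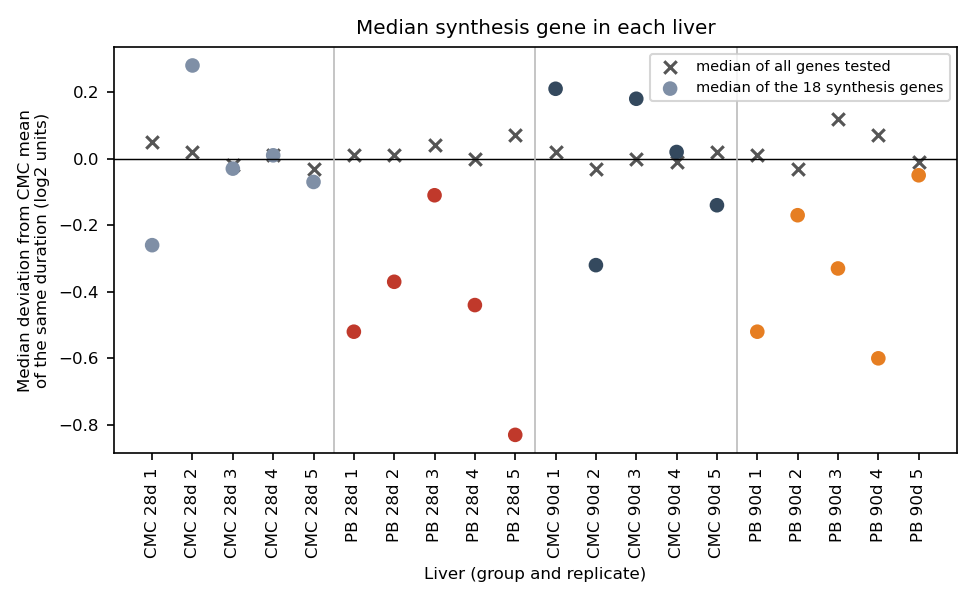
Median deviation of the 18 synthesis genes (circles) and of all genes tested (crosses) from the CMC mean of the same duration in each liver, in log2 units; circle colours mark the 4 groups. The treated livers lie from -0.83 to -0.05 and the vehicle livers from -0.32 to 0.28. The crosses stay near 0, where the normalisation holds them.

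The members also differed between durations. In vehicle livers the 90-day group was above the 28-day group for 23 of 27 members (45.8% of all genes), with a median difference of 0.29 (all genes -0.03), and in treated livers for 25 of 27 (50.3%), with a median of 0.37 (all genes 0.00). Called genes numbered 0 in the vehicle comparison (0%), where 913 had an unadjusted p under 0.05 by limma, and 1 in the treated comparison (0.00623%). At an unadjusted p under 0.05, 5 members were higher in the 90-day vehicle livers (18.5%, 2.03% of all genes), namely Hmgcs1, Fdft1, Lss, Nsdhl and Hsd17b7, and 1, Insig2, was lower (3.70%, 3.66% of all genes). In treated livers 13 were higher (48.1%, 1.96% of all genes). Without the 2 arrays that stood apart these counts were 11 (40.7%, 9.56% of all genes) and 6 (22.2%, 1.73%). The treated count was also 6 without PB 28-day replicate 5 alone and 8 without PB 90-day replicate 2 (1.64% of all genes in each case). The vehicle count was 3 without CMC 28-day replicate 1 (1.03% of all genes), 3 (0.891%) or 5 (2.76%). It was 2 without CMC 90-day replicate 1 (2.22%) or 3 (1.13%), and 9 without CMC 28-day replicate 2 (2.95%). Without CMC 90-day replicate 2 (1.64%) or PB 28-day replicate 5 (5.25%) it was 8.

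Among single genes, Hsd17b7 was 0.86 ± 0.267 (SE) higher at 90 than at 28 days under CMC and 0.76 ± 0.267 higher under PB. Fdft1 was 0.68 ± 0.205 higher under CMC and 0.85 ± 0.205 higher under PB, where its 90-day livers (11.41 to 12.03) did not overlap its 28-day livers (10.30 to 11.35). Such upward separation was seen in 0.38% of all genes. Lss was 0.55 ± 0.253 higher under CMC and 1.07 ± 0.253 higher under PB. The adjusted p of Lss in limma was 0.636 and 0.815. The 20 other genes of SREBP regulation were higher at 90 days in 19 cases under CMC (median 0.52) and in all 20 under PB (median 0.45). Kupffer cell markers were lower for 6 of 6 genes in both, with medians of -0.30 under CMC and -0.94 under PB, and their part in the result was not tested. Age, duration of dosing and time of processing cannot be told apart in these comparisons, which share their groups with the treatment effects. The test of the difference between the treatment effects called 0 genes of the series (0%), with 221 (1.38%) at an unadjusted p under 0.05 by limma and 0 members among them, and the median difference of the members was 0.10.

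**Figure D5:**
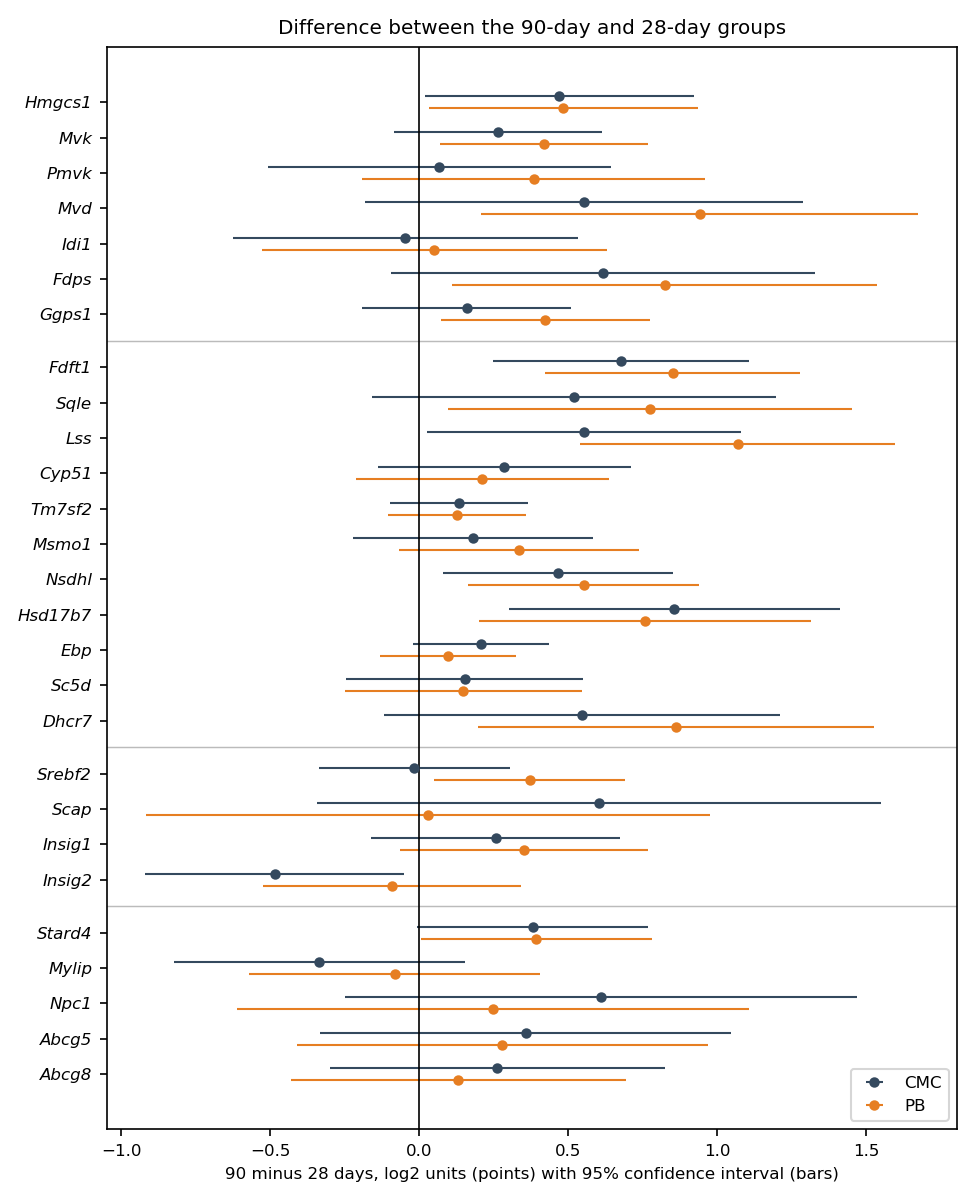
Difference between the 90-day and 28-day groups (horizontal axis, log2 units) for each gene in vehicle (dark blue) and treated (orange) livers, with 95% confidence intervals from limma; horizontal lines divide the roles. Most points lie right of 0 in both, with Insig2 (-0.48 in vehicle livers) and Mylip (-0.34 and -0.08) to the left.

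Other genes of sterol and lipid regulation were read from fixed lists, in which 0 genes were called in the treatment comparisons. Of 20 tested genes that SREBPs regulate or that process SREBPs, 18 had a negative change at 28 days and 18 at 90 days, with medians of -0.19 and -0.25. Of these 20 genes 7 had a negative change at 28 days (44.9% of all genes) and 16 at 90 days (48.5%) without the 2 arrays that stood apart, with medians of 0.06 and -0.16. Aacs, which supplies acetoacetyl-CoA from ketone bodies, had the changes -0.87 and -1.31 and a mean effect of -1.09 ± 0.314 (SE). Its adjusted p in limma was 0.431. Acly, which makes cytosolic acetyl-CoA from citrate, had -0.67 and -0.34, and -0.43 and -0.22 without those arrays. Of 13 tested accessory and side-branch enzymes 9 had a negative change at 28 days and 7 at 90 days. Acat1, the mitochondrial acetoacetyl-CoA thiolase, had a mean effect of -0.26 ± 0.072, and Pgrmc1, a heme-binding partner of Cyp51, 0.13 ± 0.047. Their adjusted p-values in limma were 0.367 and 0.632.

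Of 7 tested genes for sterol-stimulated protein turnover, 5 and 6 had a negative change, and 1 and 6 without the 2 arrays that stood apart. Nploc4 and Vcp, both parts of a complex that extracts proteins from the endoplasmic reticulum, had mean effects of -0.54 and -0.43, which were -0.13 and -0.12 without those arrays. Of 14 tested genes of the liver X receptor pathway and of sterol transport, 8 had a negative change at each duration, near the share of all genes. Osbp, a sterol and lipid exchanger, and Lrp1, a lipoprotein receptor, had mean effects of -0.37 and -0.65, and -0.13 and -0.21 without the 2 arrays. Among genes of protein folding in the endoplasmic reticulum 16 of 16 had a negative change at both durations (medians -0.44 and -0.55), and 11 were lower in the mean effect at an unadjusted p under 0.05 (2.37% of all genes), among them Sdf2l1 (-0.94 ± 0.355) and Pdia4 (-0.46 ± 0.174). Leaving out those arrays, 13 and 16 of them had a negative change, the medians were -0.20 and -0.56, and 3 were lower in the mean effect at that p (2.24% of all genes). The part of these lower levels in the result on the synthesis genes was not tested. Markers of hepatocytes had median changes of -0.07 and -0.14, with 7 and 6 of 7 negative, and -0.01 and -0.12 without the 2 arrays, with 4 and 6 negative. The lists for Kupffer, stellate, endothelial, bile duct, neutrophil, lymphocyte and erythroid cells held 0 called genes in either comparison, with median changes from 0.03 to 0.19 at 28 days and from -0.34 (Kupffer) to 0.20 (stellate) at 90 days. At 90 days, 2 of 6 Kupffer markers were lower (1.38% of all genes) and 2 of 6 stellate markers higher (3.15%) at that unadjusted p. Without the 2 arrays both counts stayed at 2 (1.75% and 2.4% of all genes), and 6 of 6 Kupffer markers had a negative change (median -0.50). The part of these markers in the result was not tested.

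Covariation among mice of a group was examined for a few members, and 4 of 10 pairs passed by Pearson's r and 1 by rank. Deviations from the group means over the 20 livers were compared for 10 pairs among Hmgcs1, Sqle, Idi1, Insig1 and Stard4, with permutation tests adjusted over the 10 pairs. Sqle and Insig1 had Pearson's r = 0.72 (permutation p = 0.0014, adjusted 0.014) and Spearman's rho = 0.72 (permutation p = 0.0027, adjusted 0.027), and r was 0.68 without the 2 livers farthest from the median of Sqle. Hmgcs1 and Sqle had r = 0.69 (permutation p = 0.0075, adjusted 0.037) and rho = 0.65 (permutation p = 0.011, adjusted 0.056), with r = 0.50 without the 2 farthest livers. Stard4 had r = 0.57 with Hmgcs1 and r = 0.55 with Sqle (adjusted permutation p = 0.04 and 0.047), whereas the rank correlations of 0.43 and 0.40 did not pass (adjusted permutation p = 0.19 and 0.21), and r with Hmgcs1 was 0.29 without the 2 farthest livers. Idi1, whose enzyme stands between Hmgcs1 and Sqle in the pathway, had r from -0.34 to -0.03 with the other 4 genes, none past the threshold (adjusted permutation p from 0.3 to 0.92). Without the 2 livers farthest from the median of Hmgcs1 or of Sqle, r was -0.06 and -0.25. Without those farthest from the median of Idi1, r was -0.06 with Insig1 and 0.22 with Stard4. Idi1 was highest of its group in the 2 arrays that stood apart (12.96 and 13.11). All pairs share the RNA quality and the scale of each array, whose part in these correlations was not tested.

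The spread among mice bears on every result above. The median within-group SD of the members was 0.37, against 0.27 over all genes, and ranged from 0.13 for Tm7sf2 and 0.15 for Ebp to 0.71 for Npc1 and 0.79 for Scap. Of 57 probe sets for the members 56 were tested, and of 15 genes with several tested probe sets 12 had the same sign of mean effect in all of them. The exceptions were Fdft1, Ggps1 and Hsd17b7. Tested singly, 0 of these probe sets were called in the treatment comparisons.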

How the data were processed

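The authors deposited log2 intensities made with RMA, per the submitters' processing notes. This method subtracts background, gives all arrays 1 distribution and summarises the probes of a probe set, and it can shrink differences at the dim and bright ends. No RMA version is given. As arrays hold no counts, the number of mice limits the precision. Of 45037 probe sets 34945 had 1 gene symbol in the platform annotation. Each gene was represented by its probe set of highest mean. A gene was tested where it exceeded the array's 25th percentile on at least 5 arrays, which all 27 members did on every array.

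Groups came from the sample titles. All 20 arrays entered 1 limma fit (limma 3.58.1, R 4.3.3) with a mean for each group and a variance prior that follows intensity, which left 16 residual degrees of freedom. P-values were adjusted by Benjamini and Hochberg over 16054 genes. The mice were separate animals, and all tests were two-sided. Exact permutation tests, correlations with 100000 draws and motif searches on both strands used Python 3.11.15 with SciPy 1.17.1, and figures matplotlib 3.10.9. The fit was tested on simulated data.

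The members and lists were chosen with earlier results of these data known. Values of every array are given for the 4 members with the smallest p at 28 days, at 90 days and in the mean effect, and for Srebf2, Insig1 and Insig2. Of other lists the 2 genes with the smallest p in the mean effect are named. Alternatives were other filters, the mean of all probe sets, each probe set singly, cyclic loess, only the groups compared, no trend, the replicate number as a block, and leaving out each array or the 2 that stood apart. Counts of the other lists without the 2 arrays that stood apart were added after the data were seen.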

Additional observations from a re-analysis of the deposited data

Results flagged for a closer look

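Sc5d, the sterol desaturase, stood at 12.98 in PB 90-day replicate 5, while the other 4 livers of that group lay between 11.86 and 11.97. The gap to the nearest liver was 0.902 of the whole range of the group, above Dixon's 95% critical value of 0.71 for 5 samples. It was the 1 outlier among 108 sets of 5 livers (27 genes in 4 groups), where chance alone gives about 1 in 20. Without this liver the change of Sc5d at 90 days was -0.54, against -0.33 with it.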

How the results depend on the processing

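No member was called in any comparison under any alternative run, and the median change of the members kept its sign under all of them, except for the difference between durations. Called genes of the series at 28 days numbered 4 with only the groups compared in the fit (fewer samples). Called genes in treated livers at 90 against 28 days numbered 2 after cyclic loess, 0 with only the groups compared and 2 without the 2 arrays that stood apart. When each array was left out, called genes ranged from 6 to 10 at 28 days, 17 to 26 at 90 days, 26 to 35 in the mean and 1 to 2 in treated livers. Medians of the members then ranged from -0.40 to -0.29, -0.34 to -0.22 and -0.35 to -0.27 for the treatment effects, -0.03 to 0.18 for their difference, 0.22 to 0.42 in vehicle and 0.30 to 0.41 in treated livers. Without the 2 arrays that stood apart, 5 members turned sign in the difference between durations and 1, Scap, in treated livers at 90 against 28 days; other settings are not listed for these comparisons. The signs of single genes in the treatment effects turned as follows. With the mean of all probe sets, Srebf2 at 90 days was -0.17 and Ggps1 in the mean effect -0.06. After cyclic loess, Abcg5 at 28 days was 0.05, Abcg8 at 90 days 0.04 and Ggps1 in the mean effect 0.00. Without the 2 arrays that stood apart, Scap, Insig2, Mylip, Npc1 and Abcg5 at 28 days were 0.38, 0.01, 0.03, 0.26 and 0.23, Abcg5 and Abcg8 at 90 days 0.10 and 0.13, and Scap, Npc1 and Abcg5 in the mean effect 0.05, 0.09 and 0.16. When each array was left out, the ranges at 28 days were -0.30 to 0.38 for Scap, -0.18 to 0.01 for Insig2, -0.27 to 0.11 for Mylip, -0.24 to 0.26 for Npc1, -0.18 to 0.23 for Abcg5 and -0.04 to 0.31 for Abcg8. At 90 days they were -0.34 to 0.04 for Pmvk, -0.03 to 0.14 for Srebf2, -0.23 to 0.10 for Abcg5 and -0.16 to 0.13 for Abcg8, and in the mean effect -0.05 to 0.06 for Ggps1, -0.06 to 0.13 for Mylip, -0.14 to 0.07 for Abcg5 and -0.02 to 0.15 for Abcg8. The causes were not tested. With the mean of all probe sets, 5 members were lower at 28 days at an unadjusted p under 0.05 (0.942% of all genes). In the mean effect 10 were lower (2.23%). Same-numbered livers correlated from -0.60 to 0.36 in their deviations from the group means. The same number correlated best only for CMC replicate 4 at 28 days and CMC replicate 2 at 90 days. These correlations gave no clear sign that the numbers pair the mice, but with 5 mice per group they cannot exclude it. The replicate block left 8 genes called at 28 days, 0 members called and a mean effect of Hmgcs1 of -0.60. With that block, 2 members were lower at 90 days at an unadjusted p under 0.05 (1.09% of all genes).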
